A study of Homo sapiens with 8 samples.

Results

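Mitoxantrone was set against no treatment in KYSE70 cells, a long-established human line from a squamous carcinoma of the esophagus. The comparison took 6 of the 8 libraries of the series, namely 3 from cells given 20 nM mitoxantrone, with a stated treatment time of 72 h, and 3 from untreated cells. Both groups were kept in the same serum-supplemented medium, and no vehicle is named for the untreated cells. Total RNA was sequenced, and the members were all genes with a mean of at least 10 normalised reads over the 8 columns of the deposited table, which were 15350 of 28281 genes. Separate cultures are not stated for the replicates, so the p-values cover the spread among these 6 samples, which may be technical.

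Mitoxantrone is an anthracenedione that intercalates into DNA and traps type II topoisomerases on it, which leaves double-strand breaks. The exporter encoded by ABCG2 carries it out of cells. The series title names the compound as an inhibitor of NRF2, the transcription factor (gene NFE2L2) that drives antioxidant and detoxification genes and that is held down by KEAP1.

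Squamous identity was visible in every library. KRT5, a keratin of basal squamous cells, had 78011 to 84458 normalised reads untreated and 46713 to 48591 after mitoxantrone, and all 10 squamous markers were tested. None of the 14 glandular markers was among the tested genes. Of 12 leukocyte markers CD68 and LAPTM5 were tested, with CD3E at 0 in every untreated library, and of 8 endothelial markers VWF alone. The fibroblast genes COL1A1, COL3A1, POSTN and THY1 were expressed, while DCN and PDGFRA stayed under the mean of 10. Less RNA per cell and fewer cells of a kind cannot be told apart in these bulk samples. The fibroblast list took 0.0125% to 0.0132% of reads in the untreated libraries and 0.00894% to 0.0102% with mitoxantrone, and its part in the results was not tested. None of 15 listed genes encoded by mitochondrial DNA was found by symbol in the deposited values, and none was used here.

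Reads recovered from the normalised values were 18176269 to 24774358 per untreated library and 17555689 to 22400560 per mitoxantrone library. The first principal component held 86.3% of the variance and separated the groups. Mitoxantrone replicate 3 lay nearer to the untreated libraries on it, at 68.2 beside 91.5 and 87.6 for replicates 1 and 2. Squared count differences of that library from replicates 1 and 2 averaged 13.01 and 13.4 times the sampling variance per gene. Between replicates 1 and 2 the ratio was 4.84. Within the untreated group the ratio was 3.53 to 4.47, so no pair of libraries agreed within sampling noise.

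After mitoxantrone, most of the expressed genome differed between the groups. Among the genes tested, 11834 (77.1%) passed limma's test with a Benjamini-Hochberg adjusted p under 0.05, of which 5965 (38.9%) were higher and 5869 (38.2%) lower. At least 2-fold changes were called upward for 3446 genes (22.4%) and downward for 3283 (21.4%), and the values of the 2 groups did not overlap for 12272 (79.9%). With so many calls, a gene list is described below by its members past 2-fold and by its median, and the share past 2-fold is to be read against 22.4% for rises and 21.4% for falls. A median standard error of 0.14 log2 units lay behind the calls. Of the tested genes, 893 reached a mean of 10 with mitoxantrone alone and 399 in untreated cells alone.

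The direction of a small change depends on how libraries are scaled. On the scale of the authors' size factors the median gene had a log2 fold change of 0.00, while the summed normalised reads were 1.38 times higher with mitoxantrone. Scaled to total reads, the median of all genes moved to -0.45 log2 units, and the calls split into 4080 higher and 7906 lower. Values below are on the authors' scale, and where scaling to total reads turned the sign of a list median described here, that value is given.

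Change also ran with the length and base composition of transcripts. In 10 equal bins of genes by annotated transcript length, the shortest bin, of up to 1256 bases, had a median log2 fold change of 1.119, and the longest bin, from 7410 bases, one of -0.78. At least 2-fold rises made up 54.5% of the shortest bin and 7.56% of the longest. The trend was present in each mitoxantrone library, with medians of 1.14, 1.20 and 1.01 in the shortest bin and -0.86, -0.82 and -0.60 in the longest. Among transcripts of 2000 to 4000 bases, split into 5 bins by GC content, the lowest bin had a median of 0.60 and the highest bin one of -0.70. The span of the gene on the chromosome went with much less change in that window, from -0.11 in the shortest of 5 bins to 0.12 in the longest. Long intergenic RNAs, 328 in number, had a median of 1.25. Any of them near silence when untreated could pass only through treated libraries, so that median describes those that passed. Since lists differ in length and GC content, a list median below is followed, for the lists it moved most, by the value after both trends were removed from every library. Whether the trends come from the cells or from the RNA and libraries was not tested.

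**Figure D1:**
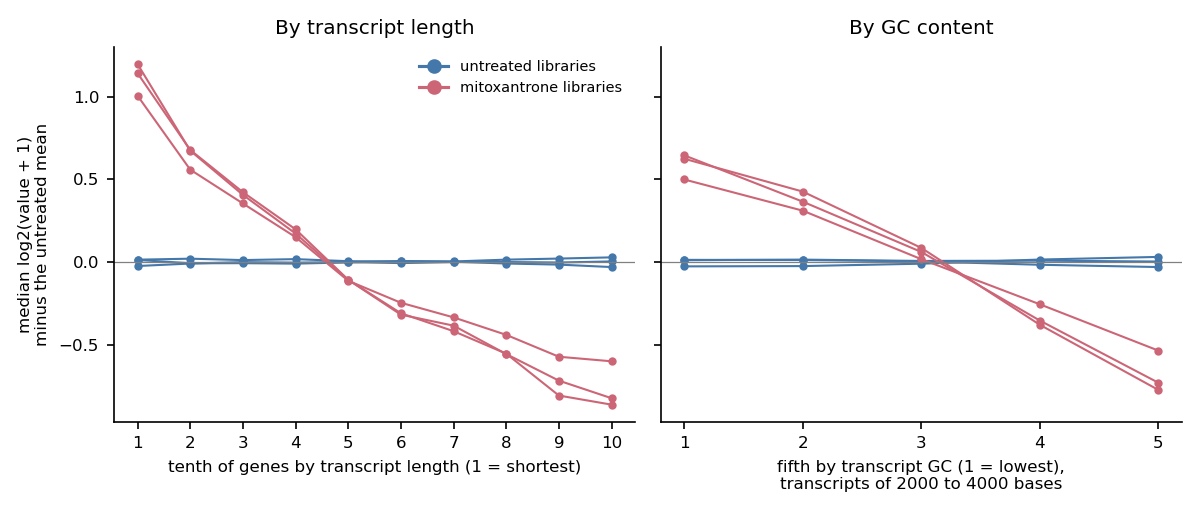
Median over genes of log2(value + 1) minus the untreated mean, per library, in 10 bins of transcript length (left) and 5 bins of transcript GC content among transcripts of 2000 to 4000 bases (right). The 3 mitoxantrone lines fall from between 1.01 and 1.20 in the shortest bin to between -0.86 and -0.60 in the longest, while the untreated lines stay near 0.

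The enzymes that mitoxantrone acts on were lower. TOP2B, the topoisomerase II isoform of non-dividing and dividing cells alike (chromosome 3, 25597905 to 25664907, GRCh38), had 1245, 1276 and 1112 normalised reads untreated and 138, 154 and 234 treated. All treated values lay far below all untreated ones, and the log2 fold change with its standard error was -2.82 ± 0.17 (limma adjusted p = 1.03e-08). TOP2A, the isoform of proliferating cells (chromosome 17, 40388516 to 40417950), went from 2448, 2487 and 2216 to 1133, 1163 and 1478, a smaller change of -0.93 ± 0.10 (limma adjusted p = 2.66e-06, and 0.136 with all 8 libraries in the fit). TOP1, the type I enzyme, changed by -1.27 ± 0.13. Of 16 topoisomerase and adduct repair genes 12 fell and 2 rose, 7 (43.8%) and 0 (0%) of them at least 2-fold, with a median of -0.95. The repair scaffold gene XRCC1 (-1.40) and PARP1, whose product senses strand breaks (-1.62), were among the falls. The pair that rose encode enzymes that take trapped proteins off DNA, namely TDP2, which releases topoisomerase II from DNA ends, and the protease gene SPRTN. TDP2 had 1412, 1520 and 1568 normalised reads untreated and 2216, 2291 and 1972 treated (0.52 ± 0.08, turning to -0.35 with the length and GC trends removed), and SPRTN had a log2 fold change of 0.83 ± 0.09.

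The drug exporters moved apart. ABCG2 (chromosome 4, 88090264 to 88231322) had 364, 343 and 343 normalised reads in untreated cells and 2108, 2111 and 1680 with mitoxantrone, so that every treated library was over 4 times above every untreated one. Its mean rose 5.62-fold, a log2 fold change of 2.48 ± 0.10 (limma adjusted p = 7.01e-10). ABCC1, encoding the multidrug resistance protein MRP1, went the other way, from 3683, 3480 and 3323 to 354, 485 and 652 (-2.85 ± 0.16). ABCB1, the P-glycoprotein gene, stayed under the mean of 10 and was not tested. Of 12 ABC exporter genes tested 2 rose and 7 fell, 1 (8.33%) and 4 (33.3%) of them at least 2-fold, and the list median of -0.61 turned to 0.13 with the length and GC trends removed.

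**Figure D2:**
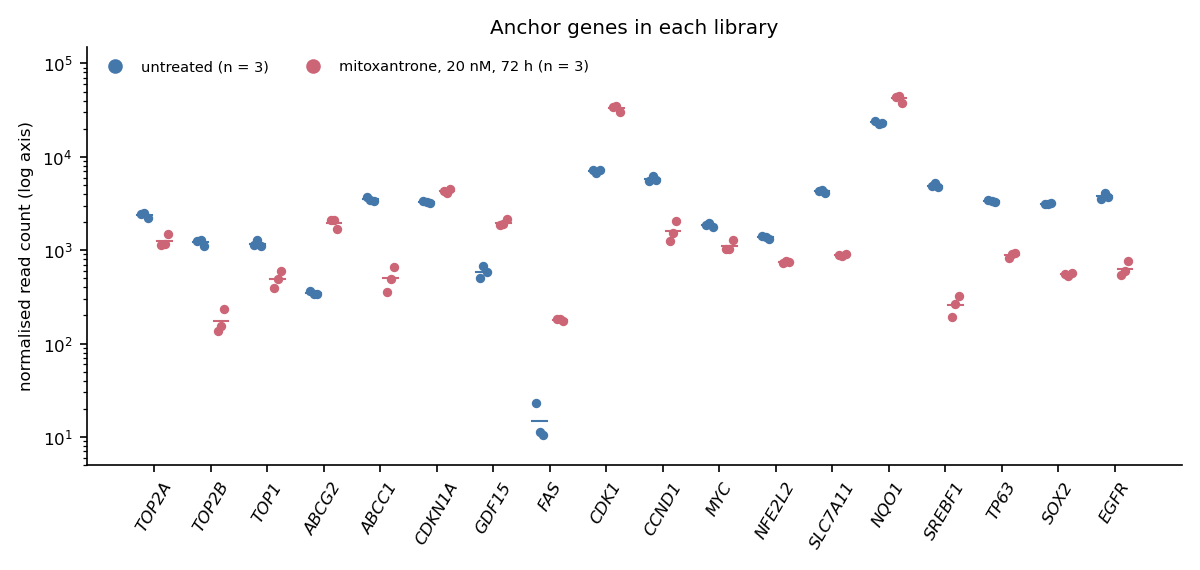
Normalised read count (log axis) of 18 genes in each untreated (blue) and mitoxantrone (red) library, with short lines at group means. The groups do not overlap for any gene shown, and the means differ most for SREBF1, 18.9 times lower with mitoxantrone.

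In a list of genes known to respond to DNA damage, 19 of 41 rose and 12 fell, 9 (22%) and 6 (14.6%) of them at least 2-fold, beside 22.4% and 21.4% of all genes. The list median of 0.11 turned to -0.35 with scaling to total reads. CDKN1A, the p21 inhibitor of cell-cycle kinases, went from 3366, 3307 and 3214 to 4299, 4139 and 4545. Those treated values all exceeded the untreated ones, yet the rise was 1.31-fold (0.39 ± 0.07) and became -0.07 with scaling to total reads. MDM2, a ubiquitin ligase gene, fell by 0.39 on the log2 scale, turning to 0.22 with the length and GC trends removed. FAS, the death receptor gene, went from 23.0, 11.4 and 10.4 to 182, 185 and 172. GDF15, a secreted stress cytokine, had 500, 683 and 580 normalised reads untreated and 1863, 1885 and 2134 treated (1.75 ± 0.11). RPS27L (2.34), PMAIP1, which encodes the BH3-only protein NOXA (1.77), and FBXO22 (1.29) rose as well. XPC, which recognises damaged bases (-1.13), SESN2 (-1.10) and BBC3, which encodes the BH3-only protein PUMA (-0.90), fell.

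Of 51 genes of double-strand break signalling and repair 37 fell and 11 rose, 11 (21.6%) and 4 (7.84%) of them at least 2-fold, so the falls past 2-fold were at the share of all genes (21.4%), with a median of -0.64 (-0.31 with the length and GC trends removed). PRKDC, the catalytic kinase of end joining, went from 4751, 4873 and 4701 to 1343, 1313 and 1819 normalised reads (-1.69 ± 0.11). FANCD2, of the Fanconi pathway (-1.28), and H2AX, the histone variant marked at breaks (-0.83), fell. XRCC4, the partner of DNA ligase IV, was higher, at 371, 401 and 443 untreated and 1437, 1356 and 1246 treated (1.73 ± 0.10). The checkpoint kinase gene CHEK2 (1.39) and RAD51C (1.33) rose with it.

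Cell-cycle genes went in both directions, as did genes at large. CDK1, the kinase of mitotic entry, rose from 7277, 6709 and 7225 to 33890, 35273 and 29988 normalised reads, 4.67-fold (2.22 ± 0.07; limma adjusted p = 1.8e-10), with no overlap. CCNB2, a mitotic cyclin (1.47), PTTG1, the securin that inhibits separase until anaphase (1.87), and MAD2L1, of the spindle checkpoint (1.87), rose too. MKI67, the proliferation marker Ki-67, went the other way, from 2328, 2879 and 2756 to 610, 728 and 1177 (-1.71 ± 0.18). The kinesin gene KIF11 (-1.64), the condensin gene SMC4 (-1.71) and FOXM1, the transcription factor of G2/M genes (-1.60), fell. Over the list of 50 G2/M genes 19 rose and 25 fell, with a median of -0.23. At least 2-fold, 9 rose (18%) and 11 fell (22%), near the shares of all genes (22.4% and 21.4%). Among 52 replication genes 23 rose and 24 fell, 6 (11.5%) and 12 (23.1%) of them at least 2-fold, with a median of -0.02 that turned to 0.04 with upper-quartile scaling. The rises there included PCNA, the polymerase clamp, from 9968, 9607 and 10046 to 22026, 22728 and 20767 (1.14, turning to -0.04 with the length and GC trends removed), and POLE4, of the leading-strand polymerase (2.04). The falls included LIG1, the replicative ligase (-2.12), and MCM7, a subunit of the replicative helicase (-1.10).

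CCND1, encoding the G1 cyclin D1, was lower in every treated library, at 1249, 1526 and 2062 normalised reads beside 5507, 6152 and 5662 (-1.87 ± 0.14). CDK6, its kinase partner (-1.38), and E2F2 (-1.99) fell, while the small CDK-binding proteins CKS1B (1.87) and CKS2 (1.94) rose. Of 30 G1/S genes 10 rose and 16 fell, 3 (10%) and 7 (23.3%) of them at least 2-fold. Their median was -0.23 (-0.40 with the length and GC trends removed). MYC, the growth transcription factor, went from 1868, 1977 and 1778 to 1041, 1029 and 1287 (-0.75 ± 0.10).

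Replication-dependent histone genes showed the highest median of the lists described. Their mRNAs are made in S phase and normally end in a stem-loop in place of a poly(A) tail. Only 24 of 62 listed genes reached the mean of 10, and because a gene at a few reads when untreated could pass only through the treated libraries, the counts that follow describe those that passed. Of these, 22 rose, 21 of them at least 2-fold, and 1 fell, with a median of 2.94, or 1.95 with the length and GC trends removed. H2BC12 had 1117, 1105 and 1287 normalised reads untreated and 8045, 8409 and 8963 treated (2.86 ± 0.08). H2BC5 went from 104, 91.9 and 99.5 to 773, 803 and 845 (3.02 ± 0.12), and H2BC11 from 26.7, 29.6 and 46.7 to 809, 943 and 923 (4.70 ± 0.20). Each group of 3 stood clear of the other. The linker histone gene H1-2 rose by 2.53, whereas H2AC20 fell by 1.64 on the log2 scale. The list took 0.0119% to 0.0131% of reads untreated and 0.0581% to 0.0656% treated. Members of the family are near-identical in sequence, so reads may be shared among them.

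The promoters of H2BC12 and H2BC5 are shown. Both hold the elements typical of the family, and of such members they had the smallest limma adjusted p. The 250 bases before the RefSeq start (GRCh38.p14) are H2BC12 at chr6:27146859-27147108 on the minus strand and H2BC5 at chr6:26157871-26158120 on the plus strand, with CCAAT and TATAAA, on either strand, in capitals, adjoining or overlapping matches running together.
H2BC12: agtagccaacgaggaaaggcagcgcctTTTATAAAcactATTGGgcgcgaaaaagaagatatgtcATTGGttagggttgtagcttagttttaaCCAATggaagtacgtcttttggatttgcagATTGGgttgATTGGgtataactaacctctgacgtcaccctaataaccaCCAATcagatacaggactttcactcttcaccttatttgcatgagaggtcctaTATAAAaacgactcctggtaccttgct
H2BC5: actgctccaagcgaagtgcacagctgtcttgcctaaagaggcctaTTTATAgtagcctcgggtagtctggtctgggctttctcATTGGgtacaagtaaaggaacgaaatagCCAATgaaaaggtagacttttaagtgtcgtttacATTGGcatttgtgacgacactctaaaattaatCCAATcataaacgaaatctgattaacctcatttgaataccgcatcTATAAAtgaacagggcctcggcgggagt
Over the 250 bases before the start, CCAAT was found for 23 of 24 tested histone genes (95.8%). It was found for 34.98% of the 11508 tested genes with a promoter sequence. TATAAA was found for 16 of the 24 (66.7%), beside 5.69%. These are descriptions of sequence, with no test.

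Apoptosis regulators shifted by member. BIK, a pro-apoptotic BH3-only gene, went from 210, 207 and 216 to 1104, 1019 and 960 normalised reads (2.28 ± 0.10), and BID, which links death receptors to mitochondria, rose by 1.90. BMF, another BH3-only gene, fell by 1.72. MCL1, a pro-survival gene, was at 3105, 3041 and 3130 untreated and 3082, 2994 and 3302 treated, values that overlapped, and BCL2L1, which encodes BCL-XL, differed by 0.18, or -0.28 with scaling to total reads. The BCL2L1 call was lost without untreated replicate 1 (0.15), untreated replicate 2 (0.17) or mitoxantrone replicate 1 (0.18). Of 18 BCL2 family genes 8 rose and 6 fell, 5 (27.8%) and 1 (5.56%) of them at least 2-fold, with a median of -0.06 that was 0.00 with upper-quartile scaling and 0.29 with the length and GC trends removed. Of 20 death receptor genes 12 rose and 5 fell, 6 (30%) and 3 (15%) of them at least 2-fold, with a median of 0.49. BIRC3, an inhibitor of apoptosis induced by NF-kB, rose (3.02). The TNF receptor gene TNFRSF1A (-1.36) and XIAP (-1.17) fell.

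Most of the tested interferon-stimulated genes were higher after mitoxantrone. IFI6, an interferon-induced membrane protein (chromosome 1, 27666061 to 27672218), had 59.7, 53.2 and 59.1 normalised reads untreated and 773, 702 and 667 treated (3.62 ± 0.13; limma adjusted p = 3.97e-10). ISG15, the interferon-induced ubiquitin-like modifier, went from 103, 105 and 109 to 609, 544 and 557 (2.42 ± 0.12), and ISG20, an exonuclease gene, from 11.03, 9.88 and 16.6 to 221, 200 and 204 (3.99 ± 0.25). No treated value of these genes came near an untreated one. Of 43 listed genes 35 reached the mean of 10. A gene at a few reads when untreated could do so only through the treated libraries, so the counts describe those that passed. Of these 35 members 23 rose and 5 fell, 17 and 1 at least 2-fold (48.6% rising that far, beside 22.4% of all genes), with a median of 0.99. The list took 0.06561% to 0.06995% of reads untreated and 0.06746% to 0.07677% treated, shares that overlapped. Medians were 0.94, 1.04 and 1.07 in the 3 mitoxantrone libraries. Not all members followed, since MX1, an antiviral GTPase, went from 40.4, 37.2 and 24.9 to 5.98, 10.3 and 11.03, and OAS3 (-0.85, turning to 0.25 with the length and GC trends removed) and the DNA sensor gene IFI16 (-0.92) fell.

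The IFI6 promoter is shown because this gene had the smallest limma adjusted p of list members with the core of the interferon-stimulated response element. IFI6 carries repeats of that core. The 250 bases before its RefSeq start lie at chr1:27672193-27672442 on the minus strand (GRCh38.p14), with TTTC, any 2 bases and TTTC again, read on either strand, in capitals.
IFI6: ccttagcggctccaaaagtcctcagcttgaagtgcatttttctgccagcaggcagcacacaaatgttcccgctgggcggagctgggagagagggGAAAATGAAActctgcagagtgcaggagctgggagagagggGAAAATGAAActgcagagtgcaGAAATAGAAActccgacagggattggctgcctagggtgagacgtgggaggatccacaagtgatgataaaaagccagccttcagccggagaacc
The core was present in 17 of 27 promoters of tested interferon-stimulated genes (63.0%) and in 2.25% of all 11508. Median log2 fold changes were 0.77 for the 17 genes and 0.62 for the others.

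The receptors and factors upstream of interferon responses were split. IFNGR1, a chain of the interferon gamma receptor, rose from 486, 444 and 395 to 2343, 2501 and 1988 normalised reads (2.36 ± 0.11), and its partner IFNGR2 by 1.31. STING1, the adaptor of cytosolic DNA sensing, rose by 0.73 ± 0.08. STAT2, a signal transducer, fell by 0.97. ADAR, an RNA-editing enzyme gene (-1.52), and MAVS, the adaptor of RNA sensing (-1.46), fell. Over 21 tested genes of this list 8 rose and 6 fell, 3 (14.3%) and 2 (9.52%) of them at least 2-fold, with a median of 0.08 that turned to -0.37 with scaling to total reads and was 0.42 with the length and GC trends removed.

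Antigen presentation genes mostly rose, among them B2M, the light chain of MHC class I. It had 6460, 6299 and 6075 normalised reads untreated and 42463, 47409 and 40242 treated, a 6.91-fold rise (2.79 ± 0.07; limma adjusted p = 6.94e-11). HLA-B (2.67), the immunoproteasome subunit PSMB9 (2.02) and the proteasome activator gene PSME2 (1.92) were higher, and CD274, which encodes the checkpoint ligand PD-L1, went from 33.1, 60.02 and 32.1 to 117, 112 and 119. TAPBP, which loads peptides (-1.21), and TAP2, of the peptide transporter (-0.99), fell. Of 22 members 14 rose and 6 fell, 12 (54.5%) and 2 (9.09%) of them at least 2-fold, with a median of 1.15 (0.94 with the length and GC trends removed). HLA genes share sequence, so their reads may be split between members.

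Secreted inflammatory genes included the largest rise of any list member outside the squamous lists. SAA1, a serum amyloid A acute-phase gene (chromosome 11, 18266174 to 18269977), went from 59.7, 66.9 and 57.0 to 2285, 2433 and 2316 normalised reads (5.24 ± 0.11), with the caution that its paralogs share sequence. IL18, a cytokine of the inflammasome pathway, rose from 3699, 3584 and 3890 to 23459, 23069 and 20700 (2.59 ± 0.07), and CXCL8, the neutrophil chemokine, from 267, 299 and 302 to 1425, 1531 and 1211 (2.26 ± 0.11). CXCL1, a related chemokine, fell by 0.84. Only 15 of 36 listed genes reached the mean of 10, in part through the treated libraries alone, and of those 11 rose and 2 fell, 10 (66.7%) and 1 (6.67%) of them at least 2-fold, with a median of 1.56, or 0.63 with the length and GC trends removed. In the NF-kB list 7 of 22 rose and 8 fell, 5 (22.7%) and 5 (22.7%) of them at least 2-fold. Its median of 0.14 turned to -0.31 with scaling to total reads and to -0.17 among members with a mean of at least 50. RELB (1.35) rose there, while NFKB1, which encodes the p50 subunit, went from 434, 425 and 450 to 67.3, 115 and 130 (-2.11 ± 0.21). Of 26 genes of senescence-associated secretion 13 rose and 7 fell, 10 (38.5%) and 4 (15.4%) of them at least 2-fold, with a median of 0.61 (0.26 with the trends removed). LMNB1, the lamin whose loss marks senescent cells, fell from 2453, 2396 and 2347 to 320, 389 and 471 (-2.62 ± 0.12).

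NRF2 targets were lower in more cases than they were higher. NFE2L2 (chromosome 2, 177227595 to 177392697) had 1416, 1400 and 1329 normalised reads untreated and 734, 762 and 753 treated, a tight separation and a log2 fold change of -0.88 ± 0.08 (limma adjusted p = 3.65e-07). KEAP1 was at 2686, 2539 and 2440 untreated and 2372, 2243 and 2246 treated, which missed the threshold (-0.16 ± 0.07; adjusted p = 0.0515). CUL3, the scaffold of the ligase that degrades NRF2 (-1.57), and MAFG, a dimer partner (-2.02), fell, and RBX1, the RING subunit of that ligase, rose by 1.47. Of 18 regulators 10 fell and 3 rose, 6 (33.3%) and 2 (11.1%) of them at least 2-fold, with a median of -0.65 (-0.19 with the length and GC trends removed).

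Of 46 tested NRF2 targets 31 fell and 11 rose, 16 and 3 of them at least 2-fold (34.8% falling that far, beside 21.4% of all genes), with a median of -0.75, and -0.87 with the length and GC trends removed. SLC7A11, which encodes the subunit that imports cystine, was at 881, 861 and 905 normalised reads beside 4252, 4376 and 4141 untreated (-2.27 ± 0.07). GCLC, the catalytic subunit of glutathione synthesis, went from 5944, 5786 and 5971 to 1391, 1454 and 1711 (-1.96 ± 0.08), and its modifier subunit GCLM fell by 0.82. Among genes of NADPH supply, TKT (-1.57) and PGD (-1.11), both of the pentose phosphate pathway, were lower. The aldo-keto reductase gene AKR1B10 (-1.57), AKR1C2 (-1.59, with near-identical paralogs), the sulfiredoxin gene SRXN1 (-1.62), the glutathione reductase gene GSR (-1.64), TXNRD1 (-0.35, or 0.02 with the length trend removed) and HMOX1, the heme oxygenase gene (-1.06), fell as well. The classical target NQO1, a quinone reductase, did not follow, with 24090, 22699 and 23127 normalised reads untreated and 43721, 44620 and 38143 treated (0.85 ± 0.07), a rise that turned to -0.10 with quantile normalisation. GSTM3, a glutathione transferase gene, rose from 2207, 2168 and 2058 to 13545, 14372 and 11833 (2.62 ± 0.08), and BLVRB also rose (1.26). The thioredoxin gene TXN (1.10) and PRDX1 (0.83) rose too, but turned to -0.47 and -0.14 with the length and GC trends removed. Ferritin genes did not separate, with FTH1 at -0.10 ± 0.07 and FTL at 0.06 ± 0.06.

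**Figure D3:**
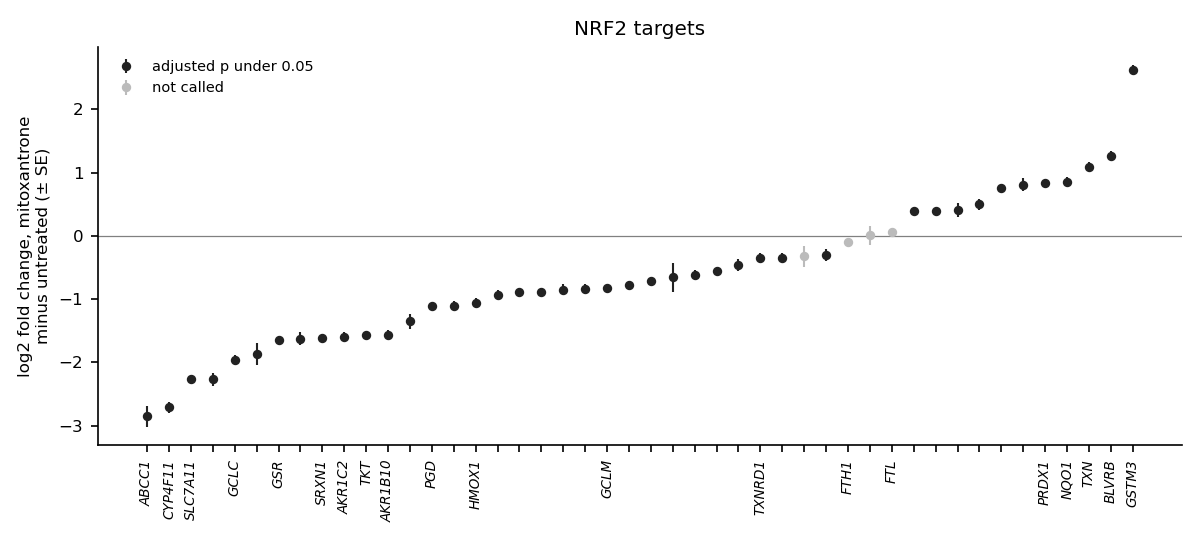
Log2 fold change (mitoxantrone minus untreated, ± SE, n = 3 and 3) of the 46 tested NRF2 targets in order, with names for those in the text, black where the limma adjusted p is under 0.05 and grey otherwise. ABCC1 and CYP4F11 stand lowest at -2.85 and -2.71, and GSTM3 stands alone at the top at 2.62.

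CYP4F11, a cytochrome P450 gene, had 1797, 1858 and 1691 normalised reads untreated and 268, 269 and 279 treated (-2.71 ± 0.09). Its promoter and that of PGD are shown because both hold the core of the antioxidant response element. Both genes fell, and they had the smallest limma adjusted p of the targets with that core. The 250 bases before the RefSeq starts lie at chr19:15934868-15935117 on the minus strand and chr1:10398814-10399063 on the plus strand (GRCh38.p14), with matches to TGACNNNGC, on either strand, in capitals.
CYP4F11: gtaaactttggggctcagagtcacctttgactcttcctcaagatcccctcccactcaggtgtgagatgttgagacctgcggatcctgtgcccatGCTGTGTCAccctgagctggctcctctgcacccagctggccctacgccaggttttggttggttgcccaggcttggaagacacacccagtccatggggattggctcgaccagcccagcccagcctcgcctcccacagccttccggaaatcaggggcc
PGD: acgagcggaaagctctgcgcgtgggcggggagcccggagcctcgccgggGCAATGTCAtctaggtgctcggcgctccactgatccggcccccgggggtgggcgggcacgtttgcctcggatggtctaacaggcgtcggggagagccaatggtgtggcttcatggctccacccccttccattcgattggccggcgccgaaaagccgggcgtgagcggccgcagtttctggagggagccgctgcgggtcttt
The core was found in 8 of 32 NRF2 target promoters (25%) and in 12.2% of all 11508. Targets with and without it had medians of -0.69 and -0.64.

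Lipid synthesis genes held some of the deepest falls. SREBF1, the transcription factor that drives fatty acid synthesis (chromosome 17, 17810399 to 17837002), went from 4818, 5192 and 4732 to 194, 262 and 323 normalised reads, a mean 18.9 times lower (-4.26 ± 0.14; limma adjusted p = 2.21e-10). SCD, the stearoyl-CoA desaturase gene, went from 26284, 26465 and 26555 to 1775, 2022 and 2152 (-3.74 ± 0.07). FASN, the fatty acid synthase gene (-2.89), and the desaturase genes FADS1 (-2.43) and FADS2 (-2.76) fell, and DGAT2, the last enzyme of triglyceride synthesis, rose by 1.35. Of 27 fatty acid genes 18 fell and 5 rose, 10 (37%) and 1 (3.7%) of them at least 2-fold, with a median of -0.69 (-0.21 with the length and GC trends removed). The sterol regulator gene SREBF2 went from 2558, 2628 and 2353 to 245, 320.2 and 414 (-2.97 ± 0.15). LSS (-2.10) and HMGCS1 (-1.75), enzymes of sterol synthesis, were lower, while the desaturase gene SC5D rose by 1.01. Of 27 cholesterol genes 16 fell and 4 rose, 10 (37%) and 1 (3.7%) of them at least 2-fold, with a median of -0.44 (-0.68 with the trends removed).

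Genes of basal squamous identity were more often lower than higher. TP63, the master transcription factor of basal squamous cells, had 3414, 3323 and 3311 normalised reads untreated and 824, 918 and 932 treated (-1.91 ± 0.07). SOX2, a lineage oncogene of squamous carcinoma, went from 3092, 3154 and 3169 to 552, 529 and 570.3 (-2.51 ± 0.07). The desmosomal cadherin gene DSG3 (-2.26), ITGB4, of the hemidesmosome (-2.21), and the protocadherin gene FAT2 (-3.42) fell, whereas PERP (1.17) and S100A2 (1.01) rose. Of 34 basal squamous genes 21 fell and 6 rose, 13 (38.2%) and 3 (8.82%) of them at least 2-fold, with a median of -0.79 (-0.22 with the length and GC trends removed).

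Several genes of the differentiated squamous layers rose from a few reads. Only 28 of 59 listed genes reached the mean of 10, and a member near silence when untreated could do so only through treated libraries, so the counts describe those that passed and no direction of the list is read from them. Of these, 19 rose and 5 fell, 14 (50%) and 3 (10.7%) of them at least 2-fold, with a median of 0.99 (0.72 with the length and GC trends removed). PRR9, a proline-rich gene of the epidermal differentiation complex, went from 4.60, 4.56 and 1.04 to 495, 478 and 443 normalised reads, the highest log2 fold change under the naming rule (6.89 ± 0.37). The protease inhibitor gene SPINK6 went from 9.19, 13.7 and 5.18 to 876, 1032 and 671 (6.44 ± 0.29), and KLK5, a protease of the outer epidermis, from 42.3, 49.4 and 40.4 to 749, 629 and 678 (3.93 ± 0.15). CSTA, a cysteine protease inhibitor of the cornified envelope, rose from 646, 637 and 599 to 3683, 4349 and 3753 (2.64 ± 0.08). The envelope genes EVPL (-1.35, turning to 0.30 with the length and GC trends removed) and LOR (-2.64) and the keratin gene KRT13 (-1.03) fell. Of 20 listed S100 genes 10 reached the mean of 10, with the same limit, and 9 of them rose, 8 (80%) at least 2-fold, with a median of 1.38 (0.58 with the trends removed), S100A13 and S100A6 reaching 2.70 and 1.81.

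**Figure D4:**
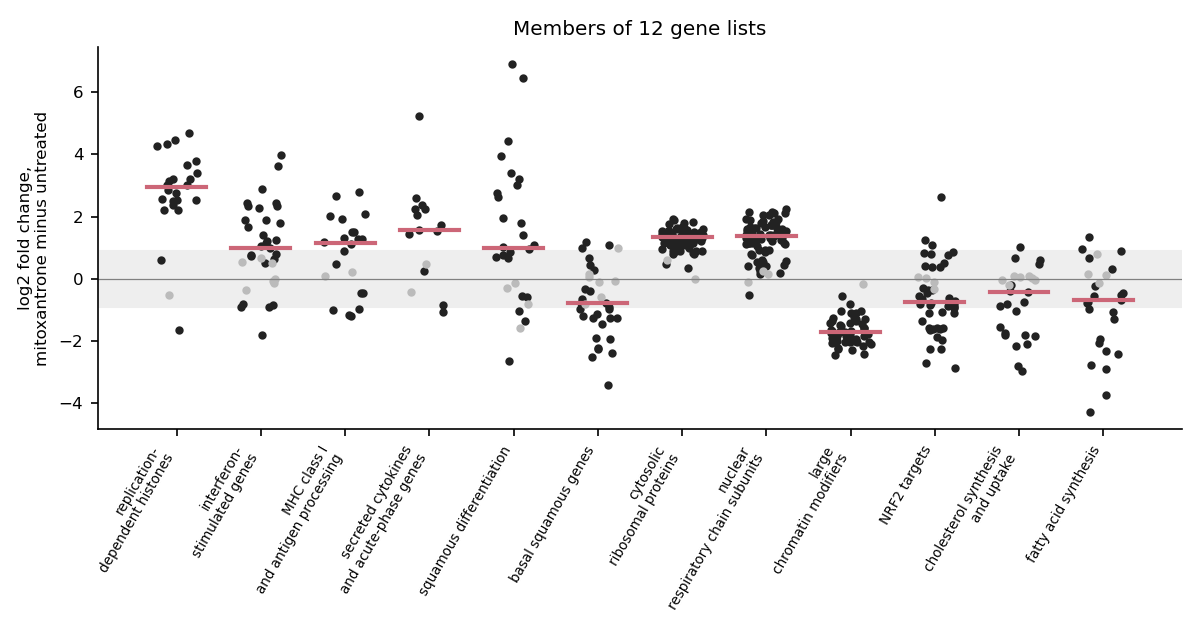
Log2 fold change of every tested member of 12 gene lists, black where the limma adjusted p is under 0.05, with the list median in red and the middle 50% of all genes (-0.89 to 0.91) shaded. Histone genes lie around a median of 2.94 and large chromatin modifiers around -1.71.

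Genes of the cytosolic ribosome and of the mitochondrial respiratory chain and ribosome mostly rose. Of 79 cytosolic ribosomal protein genes 77 rose and 0 fell, 63 (79.7%) rising at least 2-fold, with a median of 1.35, which was 0.39 with the length and GC trends removed and 0.89 with scaling to total reads. RPS27 went from 14639, 15177 and 14581 to 57307, 57254 and 51475 normalised reads (1.90 ± 0.06), while RPL3 was at 36435, 34843 and 34770 untreated and 38064, 36146 and 31964 treated, with overlapping groups. Of 75 nuclear genes of the respiratory chain 71 rose and 1 fell, 54 (72%) rising at least 2-fold, with a median of 1.37 (0.43 with the trends removed). COX6C, of complex IV, rose by 2.26, and SDHA, the large subunit of complex II, fell by 0.52. Of 77 mitochondrial ribosomal protein genes 67 rose and 1 fell, 43 (55.8%) and 0 (0%) of them at least 2-fold, with a median of 1.06 (0.27 with the trends removed). Host genes of small nucleolar RNAs, 15 of 23 of which rose and 3 fell, 9 (39.1%) and 0 (0%) of them at least 2-fold, had a median of 0.72 (0.01 with the trends removed). GAS5 rose by 1.66. Of 33 proteasome genes 22 rose and 7 fell, 11 (33.3%) and 2 (6.06%) of them at least 2-fold, with a median of 0.77 that turned to -0.10 with the trends removed.

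Large chromatin regulators fell almost without exception. Of 52 genes 51 fell, 49 of them at least 2-fold (94.2%, beside 21.4% of all genes), and 0 rose, with a median of -1.71, or -0.70 with the length and GC trends removed. Medians were -2.13, -1.78 and -1.32 in mitoxantrone replicates 1 to 3, the third again the nearest to the untreated level. NSD2, a histone H3 lysine 36 methyltransferase gene, went from 1556, 1665 and 1650 to 274, 280.2 and 341 normalised reads (-2.45 ± 0.10). The acetyltransferase gene EP300 fell by 1.72 and KMT2D fell by 2.04, and SMARCA2, a remodeller ATPase gene, missed the threshold (-0.18 ± 0.08). The median annotated transcript of this list was 8948 bases, beside 3239 for all tested genes.

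Splicing and ribosome assembly genes were lower in more cases than higher. Of 46 spliceosome genes 29 fell and 12 rose, 13 (28.3%) and 7 (15.2%) of them at least 2-fold, with a median of -0.64. PRPF8, the core of the catalytic spliceosome, fell by 1.93 and SRSF4 fell by 2.33, while the small core gene SNRPD2 (1.67) rose. Of 50 ribosome biogenesis genes 36 fell and 12 rose, 19 (38%) and 1 (2%) of them at least 2-fold, with a median of -0.50. NCL, the nucleolar protein nucleolin, went from 7012, 7859 and 7094 to 1819.8, 2120.1 and 3175 normalised reads (-1.66 ± 0.15), and UBTF, which activates RNA polymerase I, fell by 1.79. Of 30 nuclear pore genes 15 fell and 7 rose, 10 (33.3%) and 2 (6.67%) of them at least 2-fold, with a median of -0.20. That median turned to 0.02 with the length trend alone removed and was -0.17 with the length and GC trends removed.

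Most protein folding genes were lower, and more lysosomal genes were higher than lower. HSPA5, the chaperone BiP of the endoplasmic reticulum, went from 14731, 14806 and 13767 to 5265, 5703 and 5819 normalised reads (-1.37 ± 0.06), and HYOU1 fell by 1.94. Of 26 genes of the unfolded protein response 18 fell and 5 rose, 7 (26.9%) and 2 (7.69%) of them at least 2-fold, with a median of -0.67. Of 26 heat shock chaperone genes 15 fell and 7 rose, 9 (34.6%) and 2 (7.69%) of them at least 2-fold, with a median of -0.35 (-0.59 with the length and GC trends removed). HSPA1B, nearly identical to HSPA1A, fell by 2.49 and HSP90AB1 fell by 1.30, while CRYAB, a small heat shock protein gene, rose from 909, 894 and 966 to 5489, 5490.0 and 5751 (2.59 ± 0.07). In the integrated stress response, DDIT4, an inhibitor of mTORC1, went from 4446, 4596 and 4156 to 691, 653 and 532 (-2.82 ± 0.10), and the amino acid transporter gene SLC7A5 fell by 1.79. ATF3 rose by 2.21, and over 28 genes 7 rose and 14 fell, 3 (10.7%) and 8 (28.6%) of them at least 2-fold, with a median of -0.32. Of 41 lysosome and autophagy genes 23 rose and 11 fell, 13 (31.7%) and 6 (14.6%) of them at least 2-fold, with a median of 0.33 that turned to -0.13 with scaling to total reads. The cathepsin gene CTSV rose from 2120, 2084 and 1850 to 16124, 15547 and 13697 (2.90 ± 0.08), and the regulators TFEB (-1.73) and TFE3 (-1.64) fell.

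In growth factor signalling, the receptor genes EGFR and ERBB2 fell while the ligand genes AREG and HBEGF rose, but not every ligand gene of the list rose. EGFR went from 3513, 4119 and 3690 to 535, 599 and 773 normalised reads (-2.58 ± 0.12; limma adjusted p = 1.53e-09), and ERBB2 fell by 1.71. AREG, which encodes the EGFR ligand amphiregulin, went from 952, 952 and 915 to 6535, 7272 and 6217 (2.82 ± 0.07), and HBEGF, a heparin-binding ligand, also rose. The ERK phosphatase gene DUSP5 rose by 1.76 and LRIG1, an inhibitor of the receptors, fell by 2.37. Of 29 genes of this list 15 rose and 10 fell, 11 (37.9%) and 6 (20.7%) of them at least 2-fold, with a median of 0.48 (0.90 with the length and GC trends removed). Of 26 immediate early genes 10 rose and 9 fell, 4 (15.4%) and 4 (15.4%) of them at least 2-fold, with a median of 0.06. That median turned to -0.40 with scaling to total reads and to -0.15 with the length trend alone removed. With the length and GC trends removed it was 0.27. FOSB rose by 2.41 and EGR1 fell by 2.20. Of 26 Notch pathway genes 15 fell, 3 rose and 8 were not called, 11 (42.3%) and 1 (3.85%) of the falls and rises being at least 2-fold, with a median of -0.73 (-0.35 with the length and GC trends removed). The receptor gene NOTCH1 went from 1195, 1267 and 1183 to 142, 223 and 375 (-2.41 ± 0.25). The target HES1 did not separate, at 798, 720 and 724 beside 668, 786 and 909.

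Of 29 genes of ID proteins and TGF-beta feedback 22 fell and 4 rose, 12 (41.4%) and 3 (10.3%) of them at least 2-fold, with a median of -0.72 (-0.37 with both trends removed). ID3, an inhibitor of differentiation factors, fell by 1.46, and BAMBI, a decoy receptor gene, rose by 2.04. Of 28 YAP and TEAD genes 18 fell and 6 rose, 13 (46.4%) and 4 (14.3%) of them at least 2-fold, with a median of -0.61 (-0.23 with both trends removed), yet ANKRD1, a classical target, rose from 1278, 1436 and 1422 to 6822, 7357 and 6915 normalised reads (2.35 ± 0.07). Of 30 genes of epithelial-mesenchymal transition 11 rose and 13 fell, 6 (20%) and 5 (16.7%) of them at least 2-fold, with a median of 0.23. That median turned to -0.22 with scaling to total reads and to -0.08 with quantile normalisation. Among members with a mean of at least 50 it was -0.37. VIM, the mesenchymal filament vimentin, rose by 1.98, and both cadherin genes CDH2 (-2.29) and CDH1 (-0.90) fell. Of 34 glycolysis and hypoxia genes 13 rose and 16 fell, 4 (11.8%) and 7 (20.6%) of them at least 2-fold, with a median of -0.06 that was 0.00 with upper-quartile scaling, EGLN3, an oxygen sensor, at 2.30 and VEGFA at -1.33. Of 14 tested metallothionein and zinc genes 11 rose and 3 fell, 3 (21.4%) and 1 (7.14%) of them at least 2-fold, a share of rises near that of all genes (22.4%), with a median of 0.42 that turned to -0.03 with scaling to total reads and was 0.75 with both trends removed. The zinc-binding MT1X rose from 1715, 1644 and 1679 to 7287, 8724 and 8108 (2.25 ± 0.07).

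**Figure D5:**
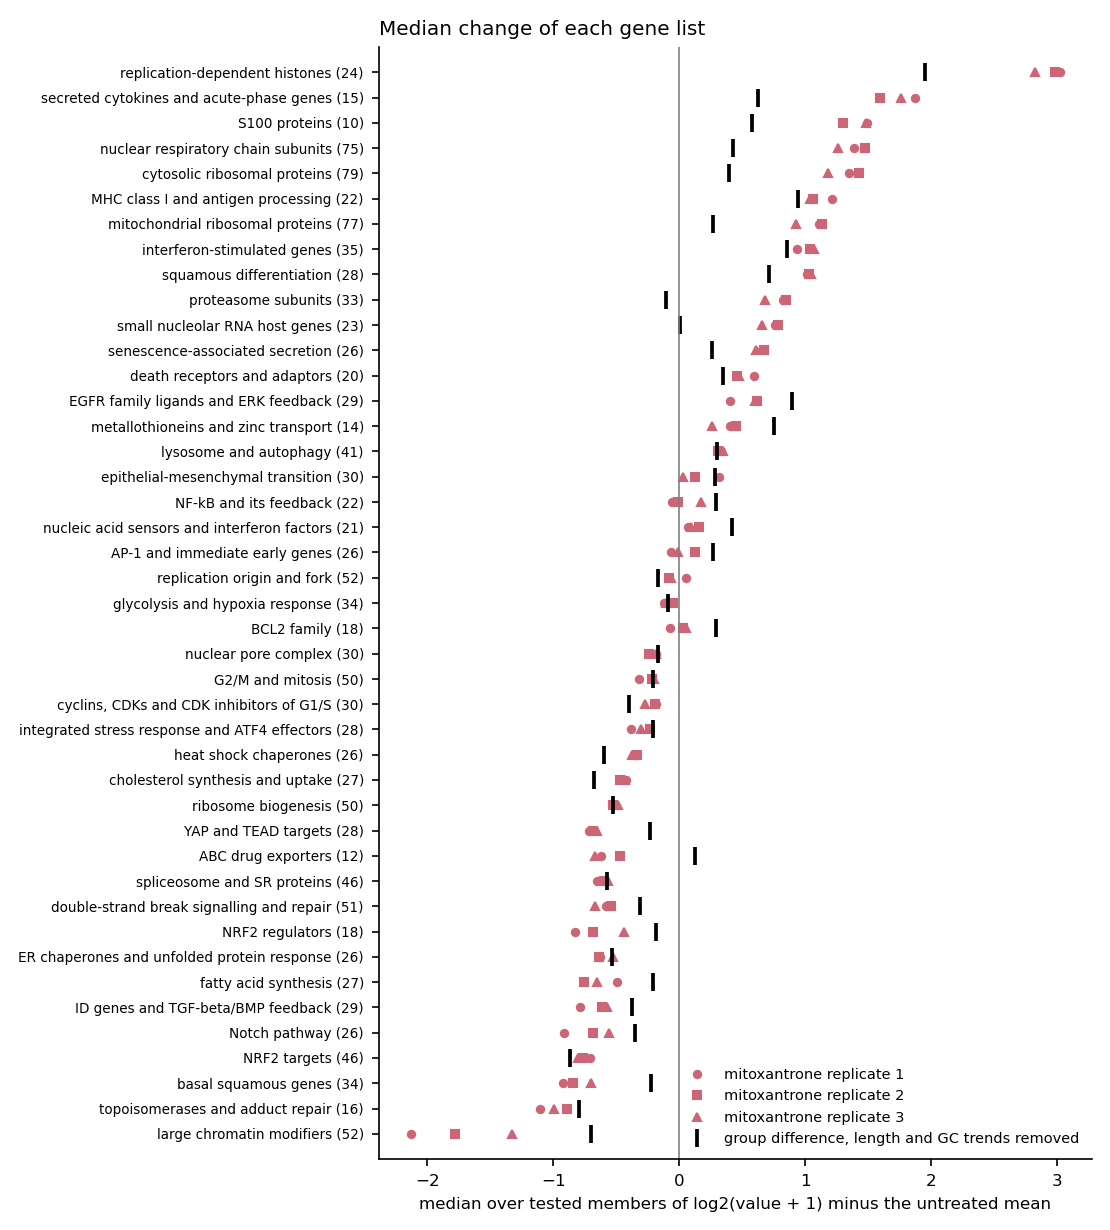
Median over tested members of log2(value + 1) minus the untreated mean, for 43 gene lists in each mitoxantrone library (red symbols, number tested in brackets), with the group difference after removal of length and GC trends as a black bar. The 3 libraries lie close together for most lists, from 2.82 to 3.02 for histones, and spread most for large chromatin modifiers, from -2.13 to -1.32.

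Outside the lists, the largest rises among genes with a mean of at least 100 included GPR1, a chemerin receptor gene, from 1.84, 3.799 and 5.18 to 456, 425 and 449 normalised reads (6.66 ± 0.31), and CCDC63 (6.40). MAP3K7CL (6.42) rose from 0.92, 14.4 and 10.4, and without untreated replicate 1 its log2 fold change was 5.49. FBP1, a gluconeogenic phosphatase (5.11, or 4.49 without untreated replicate 1), SERPINB7, a serine protease inhibitor of skin (4.58), the amino acid transporter gene SLC7A7 (4.53), the phospholipase gene LIPH (4.47) and SPINK2 (4.44) followed. SERPINB7 had the most reads of these, at 198, 141 and 146 untreated and 3945, 4043 and 3519 treated. The surface glycoprotein gene CD24 rose from 1669, 1493 and 1626 to 10427, 10628 and 10173 (2.71 ± 0.07).

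Among genes with a mean of at least 100, the deepest fall was that of DHRS2, which encodes a dehydrogenase of the short-chain family (chromosome 14, 23630115 to 23645639), from 403, 396 and 412 to 5.98, 7.75 and 5.52 normalised reads (-5.78 ± 0.23). CDH4, a cadherin gene (-3.93), GNAZ, a G protein subunit gene (-3.66), SDK2 (-3.46), ZNF469 (-3.46), the deacetylase gene HDAC4 (-3.42), ARHGAP35 (-3.36) and CAMKK1 (-3.36) were among the 12 deepest falls, as were SREBF1, SCD and FAT2 above, each with no overlap between the groups. EGFR-AS1 (-3.50) lies antisense within EGFR, and whether its reads were told apart by strand is not given in the sources used here. NEFL, a neurofilament gene, was at 14264, 14165 and 13815 untreated and 2037, 2005 and 2236 treated (-2.75 ± 0.07).

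Among the most abundant transcripts, EEF1A1, the translation elongation factor, had 185267, 169302 and 185505 normalised reads untreated and 272529, 270046 and 223357 treated (0.50 ± 0.09). ACTB, beta-actin, went from 147417, 144393 and 150518 to 71384, 76728 and 98059 (-0.86 ± 0.10). GAPDH differed by 0.32, or -0.14 with scaling to total reads, and PKM by -0.43. RPLP0 and PPIA rose by 1.51 and 1.17, and RPS6 by 1.09, which turned to -0.15 with the length and GC trends removed.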

How the data were processed

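STAR 2.6.90c, featureCounts 1.5.1, cutadapt 1.12 and FastQC 0.11.5 are the tools listed, with build hg38, per the submitters' processing notes. The sources used here do not give the annotation, the strand setting or the treatment of multi-mapping reads. The deposited table holds DESeq2-normalised signal, that is, counts per gene over a size factor for each library as the authors scaled them, and 100% of values came out as whole reads within 0.1 read. Genes with a mean of at least 10 over the 8 columns were kept, and log2(value + 1) was fitted for the 2 groups alone with limma 3.58.1 in R 4.3.3 (empirical Bayes with trend, 4 residual degrees of freedom, Benjamini-Hochberg adjustment at 0.05). This scale understates changes of low genes. Transcript length and GC content came from GENCODE 29 for 14021 tested genes. edgeR 4.0.16 and DESeq2 1.42.0 ran on recovered reads as alternatives. The fit was also run on simulated counts with few changed genes and no trend on length or GC content. That setting is unlike these data, so it cannot vouch for the calls made here.

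Members and lists were chosen with earlier results of these data known. Genes were named by fixed choice, by the 12 largest changes each way at a mean of at least 100, by the 4 smallest p-values each way, by the 5 highest means in each group, or as up to 4 list members each way with the smallest adjusted p. XRCC1, MKI67, MCL1, BCL2L1, HLA-B, PSMB9, CD274, TAP2, TKT, PGD, AKR1B10, AKR1C2, FTL, FASN, SREBF2, ITGB4, RPL3, EP300, KMT2D, SMARCA2, PRPF8, SNRPD2, NCL, HSPA1A, SLC7A5, TFEB, ERBB2, HBEGF, NOTCH1, HES1 and CDH1 were named after their values were seen. Some listed genes are not reported here.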

Additional observations from a re-analysis of the deposited data

How the results depend on the processing

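Over 22 alternative settings the count of called genes stayed within 1.5 times the 11834 of the limma fit. It was 11898 with edgeR, 11575 with DESeq2, 10443 with the length trend removed, 10095 with the length and GC trends removed (chosen after the data were seen) and 8430 with all 8 libraries in the fit, and 11106 to 12118 when 1 library was left out. The fits with trends removed covered 14021 genes. Among genes called there and in the limma fit, 325 had the opposite sign with the length trend removed and 687 with both trends removed. With scaling to total reads 194 did, and with quantile normalisation 116. Calls of at least 2-fold were 2192 higher and 1805 lower with both trends removed, and 1976 and 5187 with scaling to total reads. The shares of all genes past 2-fold thus depend on the setting. Same-numbered libraries had deviations correlated at 0.05, -0.01 and 0.02, beside -0.09 to 0.07 for libraries of unlike number. These values show no shared deviation, but they cannot tell whether the libraries were paired by design. A replicate block gave 11849 calls. Of 4637 pairs of a named gene and a setting, 19 changed direction, and the cause was not tested. With scaling to total reads, CDKN1A became -0.066, BCL2L1 -0.28 and GAPDH -0.14. With quantile normalisation, BCL2L1 became -0.125, GAPDH -0.22, NQO1 -0.10 and PRDX1 -0.15. With the length trend removed, GAPDH became -0.11, MDM2 0.34 and TXNRD1 0.020. With the length and GC trends removed, COL1A1 became 0.16, EVPL 0.30, MDM2 0.22, OAS3 0.25, PCNA -0.040, PRDX1 -0.14, RPS6 -0.15, TDP2 -0.35 and TXN -0.47. Calls were lost in 41 pairs, 21 of them with all 8 libraries in the fit, and gained in 37.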

Other observations

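Zinc finger genes, taken as symbols of ZNF and a number after the values were seen, were described with no test. Of 337 tested genes 172 fell and 52 rose, with a median log2 fold change of -0.56, or -0.36 with the length and GC trends removed. At least 2-fold, 90 fell (26.7%, beside 21.4% of all genes) and 26 rose (7.72%, beside 22.4%). Their median annotated transcript was 3675 bases, beside 3239 for all tested genes.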
